A study of Mus musculus with 18 samples.

Results

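The arginine-handling genes Arg1, Arg2, Nos2, Slc7a2, Ass1, Odc1, Oat and Gch1 were followed across every library of a mouse tumour study. They were chosen by name, with earlier results of these data known. All 8 were found among the 55291 genes of the deposited table and passed the filter on low values. The study made 18 RNA libraries from subcutaneous tumours in BALB/cJ or C57BL/6J mice. The implanted cells were CT26 (a BALB/c colon carcinoma line), CT26-NY-ESO-1 (CT26NYESO1 below, a line named for the human antigen NY-ESO-1) or LL/2 (LL2 below, the Lewis lung carcinoma of C57BL/6 mice). Each tumour type had 3 libraries with OK-432 (OK432), a penicillin-treated, freeze-dried preparation of Streptococcus pyogenes that stayed in the tumour for 24 hours, and 3 libraries without it (Ctrl), and all tumours were taken on day 14. The labels state neither age nor sex, nor what control tumours received, nor whether each library is a mouse of its own, so the p-values speak only of variation among these libraries, part of which may be technical. Strain and tumour line cannot be told apart where LL2 is compared with the other tumours.

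Arginine stands at a branch point. Arginases split it into ornithine and urea, and ornithine goes on to polyamines through ornithine decarboxylase or towards proline and glutamate through ornithine aminotransferase, while nitric oxide synthases turn arginine into nitric oxide and citrulline. In tumours, macrophages and neutrophils are well-known sources of arginase, which can deprive T cells of arginine, and inducible nitric oxide synthase is a hallmark of myeloid cells stimulated by bacterial products and interferon-gamma. The 8 genes cover these steps: Slc7a2 brings arginine into the cell, Arg1 and Arg2 and Nos2 compete for it, Gch1 supplies the cofactor of Nos2, Ass1 helps to rebuild arginine from citrulline, and Odc1 and Oat use ornithine.

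Values are TPM, a transcript level scaled for transcript length and library total. Depth is unknown, because TPM keeps no read counts. Differences are on the log2(TPM + 1) scale with their standard error, which understates changes of low genes, and calls were made where limma's p, adjusted by Benjamini-Hochberg over all 16816 genes tested, was under 0.05. Each library listed 24036 to 25858 genes above 0. In these bulk samples, fewer cells of a type and less RNA per cell cannot be told apart. The 5 keratin, Epcam and claudin genes listed as epithelial markers summed to 373 to 567 TPM in LL2 libraries, to 9.21 to 23.2 TPM in CT26NYESO1 libraries and to no more than 0.786 TPM in CT26 libraries, with Krt8 and Krt18 making up nearly all of the sum in LL2 and Krt18 in CT26NYESO1. The means of Krt19, Epcam and Cldn4 were under 1 TPM in every group, so most of these epithelial markers were near 0 in all 3 tumour types, and in CT26 all of them were.

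**Figure D1:**
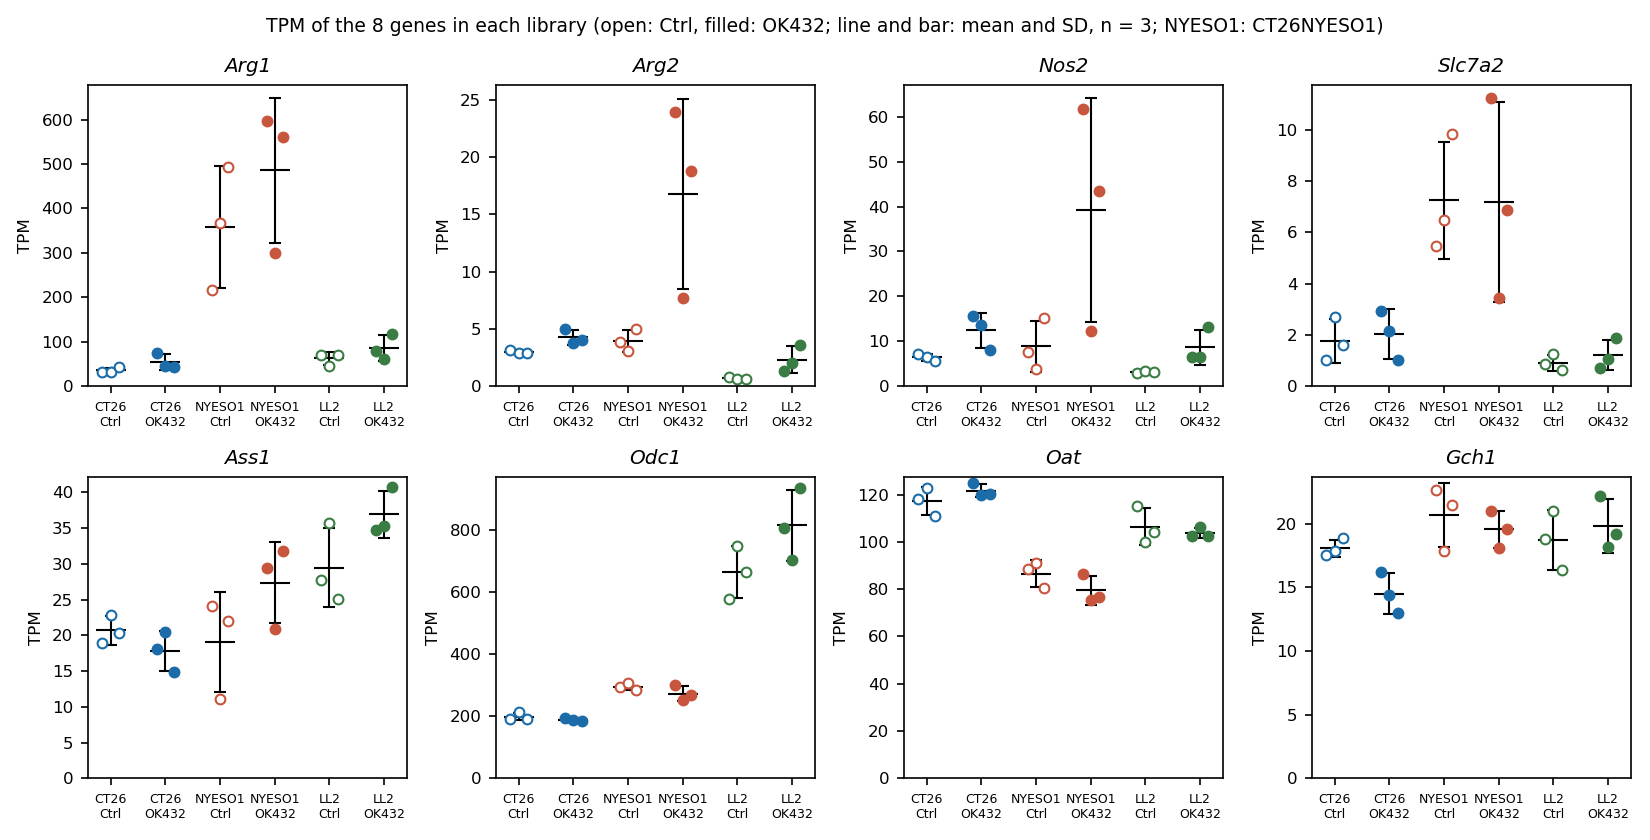
TPM of each of the 8 genes (vertical axes, linear from 0) in the 3 libraries of each group (horizontal axis; open points Ctrl, filled points OK432), with the mean as a line and the SD as a bar. Arg1 stood between 217 and 597 TPM in CT26NYESO1 libraries and between 32.2 and 117 TPM in all others, while Odc1 was highest in LL2.

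With OK-432, Arg2 was the member that passed the test, in CT26NYESO1 tumours and in the average over the 3 tumour types. Nos2 and Arg1 had higher means with OK-432 in every tumour type but did not pass it. In CT26NYESO1, 1 of the 8 members was called against 0.666% of all genes. None was called in CT26, where 0% of all genes were, or in LL2, where 0.0178% were. At an unadjusted p under 0.05, 1 member passed in CT26 against 4.1% of all genes, and 3 passed in LL2 against 5.26%. In the average of the 3 effects, 1 member was called against 0.172% of all genes. In the differences between the effects of 2 tumour types, no member was called. All genes called came to 0% for CT26NYESO1 less CT26 and to 0.00595% for each of LL2 less CT26 and LL2 less CT26NYESO1. At an unadjusted p under 0.05, 2, 2 and 1 members passed there, against 8.84%, 4.89% and 8.81% of all genes. The members' median difference was 0.09 in CT26, 0.19 in CT26NYESO1 and 0.31 in LL2, and that of all genes tested was 0.0004, -0.0216 and -0.0099.

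**Figure D2:**
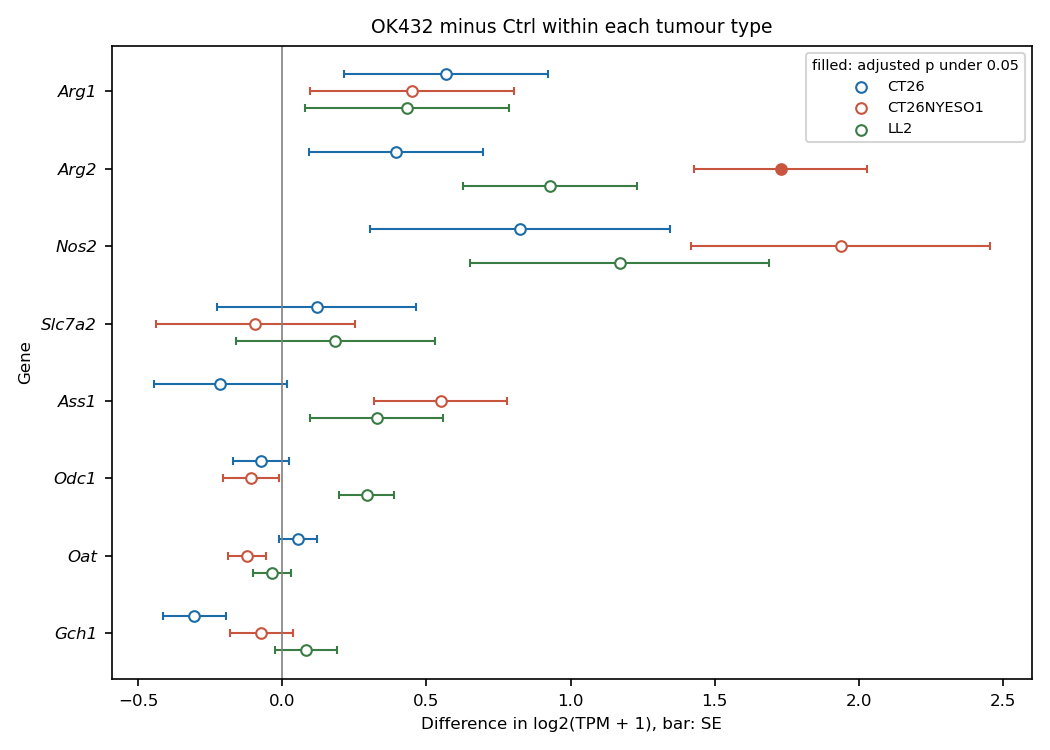
OK432 minus Ctrl difference in log2(TPM + 1) (horizontal axis) for each gene (vertical axis) and tumour type (colours), with SE bars and filled points for an adjusted p under 0.05. Arg2 in CT26NYESO1, at 1.73, is the filled point.

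Slc7a2 encodes CAT2, a membrane carrier of cationic amino acids known for supplying arginine to activated macrophages, and lies on mm10 at chr8:40862396-40922308 on the plus strand. Its levels were low outside CT26NYESO1. Control libraries held 0.999, 2.71 and 1.60 TPM in CT26, 5.46, 6.46 and 9.82 TPM in CT26NYESO1 and 0.854, 1.26 and 0.642 TPM in LL2. OK432 libraries held 2.92, 2.14 and 1.004 TPM in CT26, 11.2, 3.45 and 6.88 TPM in CT26NYESO1 and 0.723, 1.04 and 1.87 TPM in LL2. Every CT26NYESO1 library was thus above every other library, and the OK432 and Ctrl groups overlapped in each tumour type. Among controls alone, CT26NYESO1 lay wholly above CT26 for 22.3% of all genes tested, and LL2 wholly below CT26NYESO1 for 28.9%. The share over control and OK432 libraries together was not counted. Slc7a2 was higher in CT26NYESO1 than in CT26 controls by 1.59 ± 0.34 (SE; adjusted p = 0.000755) and lower in LL2 than in CT26NYESO1 controls by a difference of -2.08 ± 0.34 (adjusted p = 6.13e-05). The OK432 difference was 0.12 in CT26, -0.09 in CT26NYESO1 and 0.18 in LL2 (adjusted p = 1, 0.944 and 1).

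Arg1, the cytosolic arginase of liver and of alternatively activated macrophages, lies at chr10:24915221-24927484 on the minus strand. It was the most abundant of the arginine-consuming members in every group. CT26 controls held 32.8, 32.2 and 42.5 TPM and LL2 controls 69.9, 45.5 and 70.9 TPM. CT26NYESO1 controls held 217, 366 and 493 TPM, a mean of 359 ± 138 (SD, n = 3) against 35.8 ± 5.78 in CT26. The groups did not overlap, as held in that direction for 22.3% of all genes tested. The ratio of means was 10.02, and the difference was 3.22 ± 0.35 (adjusted p = 2.2e-06). LL2 controls were lower than CT26NYESO1 controls by a difference of -2.46 ± 0.35 (adjusted p = 3.1e-05). Against CT26 controls the LL2 controls stood 0.76 ± 0.35 higher without passing the test (adjusted p = 0.0708), and the call was made after rescaling by the median of ratios (0.86, adjusted p = 0.0457) or quantile normalization (0.90, adjusted p = 0.0337), or without LL2 control replicate 2 (0.97, the highest of the values with 1 library left out), CT26NYESO1 control replicate 1 or CT26NYESO1 OK432 replicate 2.

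With OK-432, Arg1 held 75.1, 45.9 and 43.5 TPM in CT26, 597, 299 and 561 TPM in CT26NYESO1 and 77.9, 61.6 and 117 TPM in LL2. The CT26 groups did not overlap, though only narrowly, with 43.5 TPM the lowest OK432 and 42.5 TPM the highest Ctrl library, and the other pairs of groups did. The differences were alike in size, 0.57 ± 0.35 in CT26, 0.45 ± 0.35 in CT26NYESO1 and 0.43 ± 0.35 in LL2, none past the test (adjusted p = 1, 0.579 and 1). Their average was 0.48 ± 0.20 (adjusted p = 0.439).

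Arg2, the mitochondrial arginase of kidney and of many other tissues, lies at chr12:79130777-79156301 on the plus strand. Its control levels were 3.17, 2.89 and 2.86 TPM in CT26, 3.81, 3.08 and 4.98 TPM in CT26NYESO1 and 0.782, 0.645 and 0.583 TPM in LL2, whose mean of 0.670 TPM was the lowest group mean of any member. LL2 controls were lower than CT26 controls by a difference of -1.25 ± 0.30 (adjusted p = 0.00155) and lower than CT26NYESO1 controls by one of -1.55 ± 0.30 (adjusted p = 0.000265). With OK-432 the levels were 4.98, 3.76 and 3.98 TPM in CT26, 23.9, 7.65 and 18.8 TPM in CT26NYESO1 and 1.32, 1.99 and 3.60 TPM in LL2. Every OK432 library was above every control library of its tumour type, in each of the 3. Arg2 was the only member of which this held, as it did for 0.184% of all genes tested, and for each tumour type alone for 4.79% in CT26, 7.14% in CT26NYESO1 and 4.7% in LL2.

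Arg2 rose in CT26NYESO1 by 1.73 ± 0.30 (adjusted p = 0.0223), from a mean of 3.96 ± 0.960 to 16.8 ± 8.31 TPM (SD, n = 3 each), a ratio of 4.24. In LL2 the difference was 0.93 ± 0.30 (adjusted p = 0.715), with a ratio of means of 3.44. With a pseudocount of 0.1 that difference was 1.54, still short of the threshold (adjusted p = 0.342). In CT26 it was 0.39 ± 0.30 (adjusted p = 1). The average of the 3 effects was 1.02 ± 0.17 (adjusted p = 0.0196), positive in 3 of 3 tumour types. The CT26NYESO1 effect exceeded the CT26 effect by 1.33 ± 0.43 without passing the test (adjusted p = 0.457), and passed it without CT26NYESO1 OK432 replicate 2 (1.79, adjusted p = 0.0194). The CT26NYESO1 call was lost without its control replicate 1 (adjusted p = 0.0699), control replicate 2 (0.080) or OK432 replicate 3 (0.159), with no filter on low values (0.0523), and in a fit of its own 2 groups (0.372), and the differences ran from 1.42 to 2.18 when 1 library was left out. The average kept its call in 8 of 18 such refits, and lost it without any 1 of the 3 CT26 controls, CT26 OK432 replicates 1 and 3, CT26NYESO1 control replicates 1 and 2, CT26NYESO1 OK432 replicate 3 and LL2 control replicates 2 and 3 (adjusted p up to 0.0648).

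Nos2, the inducible nitric oxide synthase, lies at chr11:78920787-78960254 on the plus strand. Control levels were 7.18, 6.47 and 5.51 TPM in CT26, 7.60, 3.77 and 15.1 TPM in CT26NYESO1 and 2.82, 3.26 and 3.17 TPM in LL2. With OK-432 they were 15.6, 13.7 and 8.13 TPM in CT26, 61.7, 12.3 and 43.4 TPM in CT26NYESO1 and 6.37, 6.41 and 13.2 TPM in LL2. The groups did not overlap in CT26 and LL2, and in CT26NYESO1 the OK432 replicate 2 lay below the highest control. The difference was 0.82 ± 0.52 in CT26, 1.94 ± 0.52 in CT26NYESO1 and 1.17 ± 0.52 in LL2 (adjusted p = 1, 0.0957 and 0.920), and their average was 1.31 ± 0.30 (adjusted p = 0.151). Without CT26NYESO1 OK432 replicate 2, Nos2 was called in CT26NYESO1 (2.60, adjusted p = 0.00471) and in the average (1.53, adjusted p = 0.0039). The same library was the lowest of its group for all 8 members. No control comparison of Nos2 passed the test, the LL2 minus CT26NYESO1 difference being -1.10 ± 0.52 (adjusted p = 0.0779). It passed without CT26NYESO1 control replicate 2 (-1.53, adjusted p = 0.0234) or CT26NYESO1 OK432 replicate 2 (adjusted p = 0.0198).

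The ratio of Arg1 to Nos2 within a library, given as a description, did not overlap between the control groups of the 3 tumour types, while with OK-432 those of CT26NYESO1 and LL2 overlapped. In controls it ran from 4.56 to 7.70 in CT26, from 28.6 to 97.0 in CT26NYESO1 and from 14.0 to 24.8 in LL2. With OK-432 it ran from 3.36 to 5.36 in CT26, from 9.66 to 24.3 in CT26NYESO1 and from 8.93 to 12.2 in LL2. Arg1 transcripts outnumbered those of Nos2 in all 18 libraries. The OK432 ranges lay below the control ranges in CT26NYESO1 and LL2 and overlapped with them in CT26. The ratio of Arg1 to Arg2 ran from 57.1 to 119 in CT26NYESO1 controls and from 25.0 to 39.1 with OK-432, and from 70.6 to 122 and 30.9 to 58.8 in LL2, while in CT26 it was 10.4 to 14.9 and 10.9 to 15.1.

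Gch1 encodes GTP cyclohydrolase, the first and rate-limiting enzyme of tetrahydrobiopterin synthesis, and lies at chr14:47153895-47189413 on the minus strand. The enzyme made by Nos2 needs that cofactor. Control levels were 17.6, 17.9 and 18.9 TPM in CT26, 22.7, 17.9 and 21.5 TPM in CT26NYESO1 and 18.8, 21.02 and 16.3 TPM in LL2. With OK-432 they were 16.2, 14.4 and 12.96 TPM in CT26, 20.99, 18.1 and 19.6 TPM in CT26NYESO1 and 22.2, 18.1 and 19.2 TPM in LL2. The CT26 OK432 libraries lay below all CT26 controls, as 5.1% of genes tested did, with a difference of -0.30 ± 0.11 (adjusted p = 1). The other groups overlapped, at -0.07 in CT26NYESO1 and 0.08 in LL2 (adjusted p = 0.811 and 1). The CT26NYESO1 minus CT26 control difference of 0.18 did not pass the test (adjusted p = 0.161) and did after the median-of-ratios (0.38, adjusted p = 0.0053) and quantile scalings (0.45, adjusted p = 0.0018).

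Ass1, argininosuccinate synthase, joins citrulline to aspartate on the way back to arginine and lies at chr2:31470207-31520672 on the plus strand. Control levels were 18.9, 22.8 and 20.3 TPM in CT26, 24.1, 11.1 and 22.1 TPM in CT26NYESO1 and 27.7, 35.7 and 25.0 TPM in LL2. With OK-432 they were 18.1, 20.5 and 14.8 TPM in CT26, 29.4, 20.9 and 31.8 TPM in CT26NYESO1 and 34.8, 35.3 and 40.7 TPM in LL2. OK432 and control libraries overlapped in every tumour type, and no OK-432 difference passed the test: -0.22 ± 0.23 in CT26, 0.55 ± 0.23 in CT26NYESO1 and 0.33 ± 0.23 in LL2 (adjusted p = 1, 0.250 and 1). LL2 controls were higher than CT26NYESO1 controls by 0.66 ± 0.23 (adjusted p = 0.0206). That call was lost without CT26NYESO1 control replicate 2, the 11.1 TPM library (0.33, adjusted p = 0.110), or without LL2 control replicate 2 (0.52, adjusted p = 0.0889), and in a fit of the compared groups alone (adjusted p = 0.0988).

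Odc1, ornithine decarboxylase, the rate-limiting enzyme of polyamine synthesis, lies at chr12:17544794-17551505 on the plus strand and was the member whose ranges, over control and OK432 libraries together, separated all 3 tumour types. Control levels were 192, 214 and 191 TPM in CT26, 293, 306 and 284 TPM in CT26NYESO1 and 579, 748 and 666 TPM in LL2. With OK-432 they were 193, 189 and 184 TPM in CT26, 299, 253 and 267 TPM in CT26NYESO1 and 806, 704 and 934 TPM in LL2. The tumour types did not overlap, with or without OK-432, while the OK432 and control libraries of each type did. How many of all genes separate the tumour types in this way was not counted. Among controls alone, 22.3% of genes tested lay wholly higher in CT26NYESO1 than in CT26. The shares were 31.1% for LL2 above CT26 and 41% for LL2 above CT26NYESO1. Odc1 was higher in LL2 than in CT26 controls by 1.73 ± 0.10 (adjusted p = 7.78e-11), a ratio of means of 3.34, and than in CT26NYESO1 controls by 1.17 ± 0.10 (adjusted p = 1.67e-08). CT26NYESO1 controls exceeded CT26 controls by 0.56 ± 0.10 (adjusted p = 7.58e-05). The OK432 difference was -0.07 in CT26, -0.11 in CT26NYESO1 and 0.29 ± 0.10 in LL2 (adjusted p = 1, 0.637 and 0.715).

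Oat, the mitochondrial ornithine aminotransferase, lies at chr7:132557478-132576398 on the minus strand and had the smallest standard errors of the 8 genes. Control levels were 118, 123 and 111 TPM in CT26, 88.5, 90.9 and 80.3 TPM in CT26NYESO1 and 115, 99.9 and 104 TPM in LL2. With OK-432 they were 125, 120.0 and 120.1 TPM in CT26, 86.6, 75.6 and 76.5 TPM in CT26NYESO1 and 102, 106 and 103 TPM in LL2. All CT26NYESO1 libraries lay below all others, and the share of all genes for which this held was not counted. Among controls alone, 45.2% of genes tested lay wholly lower in CT26NYESO1 than in CT26, and 41% wholly higher in LL2 than in CT26NYESO1. The CT26NYESO1 minus CT26 control difference was -0.43 ± 0.07 (adjusted p = 1.93e-05) and came to -0.22 after median-of-ratios rescaling, still called. LL2 controls were 0.29 ± 0.07 above CT26NYESO1 controls (adjusted p = 0.000819). The OK432 differences were 0.05, -0.12 and -0.04 in CT26, CT26NYESO1 and LL2, none past the test. The ratio of Odc1 to Oat, which share ornithine as substrate, ran from 1.63 to 1.74 in CT26 controls, from 3.31 to 3.53 in CT26NYESO1 controls and from 5.03 to 7.48 in LL2 controls.

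Promoter sequence, the stretch just upstream of the earliest annotated start, was found in the RefSeq table (build GRCm38.p6) for 4 of the 8 genes, Ass1, Odc1, Oat and Gch1. The pair printed sets Odc1, whose levels separated all 3 tumour types with and without OK-432, beside Gch1, which was called in no control comparison of the values as deposited. They run 5′ to 3′ on the gene's strand, Odc1 from chr12:17544623-17544793 (plus) and Gch1 from chr14:47189414-47189663 (minus). Capitals mark matches to motifs searched on both strands.
Odc1: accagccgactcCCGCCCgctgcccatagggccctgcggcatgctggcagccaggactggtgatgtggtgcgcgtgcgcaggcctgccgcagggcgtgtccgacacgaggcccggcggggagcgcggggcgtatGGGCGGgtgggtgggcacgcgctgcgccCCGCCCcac
Gch1: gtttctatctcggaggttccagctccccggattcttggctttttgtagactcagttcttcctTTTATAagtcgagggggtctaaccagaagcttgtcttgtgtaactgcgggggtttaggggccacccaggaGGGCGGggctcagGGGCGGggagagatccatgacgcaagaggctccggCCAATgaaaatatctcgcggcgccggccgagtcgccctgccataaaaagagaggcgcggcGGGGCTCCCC
The motifs searched were the GC box GGGCGG, the CCAAT box CCAAT, the TATA box TATAAA, the E-box CACGTG, the interferon-type GAS element TTCNNNGAA, the CRE TGACGTCA, the AP-1 site TGANTCA and the kappaB motif. Odc1 held 3 GC boxes, a motif that 19.62% of 32851 promoters held in a window of the same length, and none of the others. Gch1 held 2 GC boxes (in 32.74% of promoters), 1 CCAAT box (33.85%), 1 match to the TATA box (12.37%) and 1 kappaB match (7.25%). The TATA match began 188 bases before the start and read on the opposite strand, and the kappaB match began 10 bases before the start. Each match is a description of these letters and not a site shown to be used.

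Between control tumours, more members differed than with OK-432, as did genes at large. The comparisons below share control groups with one another and with the OK-432 effects. CT26NYESO1 minus CT26 had 4 of 8 members called (Arg1, Slc7a2 and Odc1 higher, Oat lower), against 64.9% of all genes, 21.1% higher and 43.9% lower. LL2 minus CT26 had 2 of 8 called (Odc1 higher, Arg2 lower) against 68.8%, 29.1% higher and 39.7% lower. In a fit of the compared groups alone this count was 5, with Arg1 and Ass1 higher and Nos2 lower. LL2 minus CT26NYESO1 had 6 of 8 called (Ass1, Odc1 and Oat higher, Arg1, Arg2 and Slc7a2 lower) against 66.3%, 38.8% higher and 27.5% lower. The members' median differences were 0.27, -0.05 and -0.62, and those of all genes -0.1786, -0.0831 and 0.0973. The members' shares were near or below the background, so these counts mark nothing about the members as a set. Control groups also did not overlap for 22.3% of genes (higher) and 45.2% (lower) in CT26NYESO1 minus CT26. The shares were 31.1% and 41% in LL2 minus CT26, and 41% and 28.9% in LL2 minus CT26NYESO1. Separation of control groups was thus common among all genes. Rescaling by the median of ratios moved the median difference of all genes from -0.1786 to 0 in CT26NYESO1 minus CT26, and the all-gene split from 3546 higher and 7375 lower to 5114 and 5276. In LL2 minus CT26 the split of 4886 higher and 6682 lower became 6510 and 5261 after quantile normalization. The member calls named here held, in the same direction, under both scalings. With 1 library left out, some uncalled control differences passed beside those of Arg1 and Nos2 given above. They were Ass1 in LL2 minus CT26 without CT26NYESO1 control replicate 2 (adjusted p = 0.0116), Gch1 in CT26NYESO1 minus CT26 without the same library (0.0433), and Oat in LL2 minus CT26 without CT26 control replicate 3, LL2 control replicate 1 or CT26NYESO1 OK432 replicate 1 (0.0184 at the lowest).

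**Figure D3:**
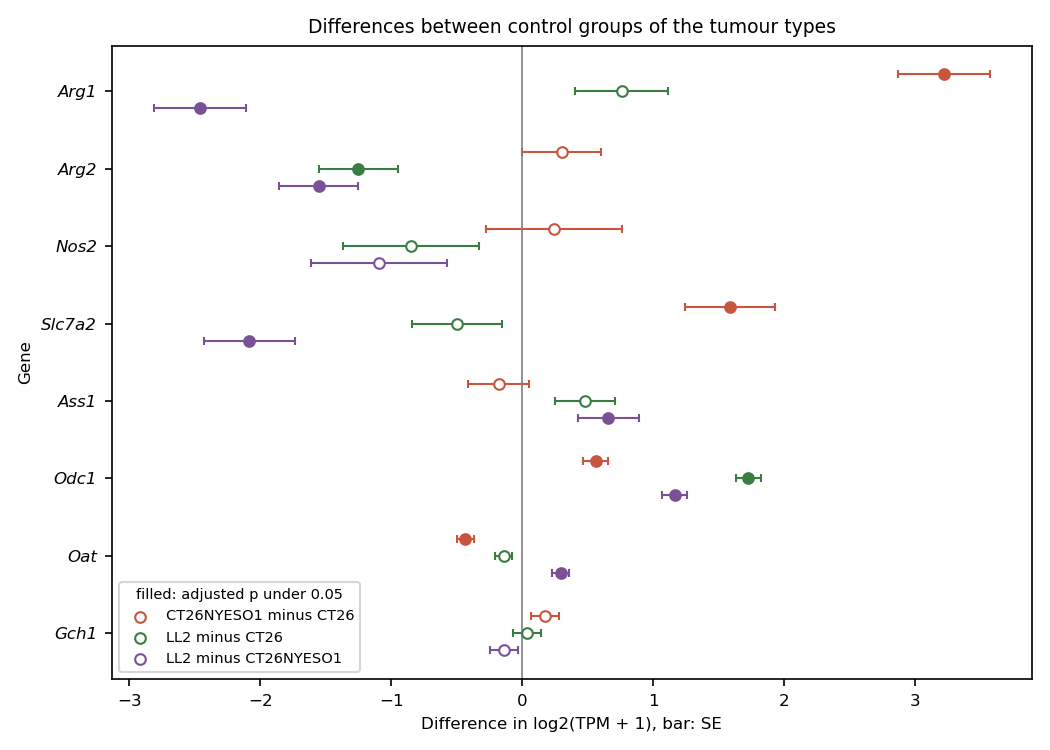
Differences between the control groups of 2 tumour types in log2(TPM + 1) (horizontal axis) for each gene (vertical axis), with SE bars and filled points for an adjusted p under 0.05. Arg1 lies at 3.22 and -2.46 in the comparisons with CT26NYESO1, and Odc1 lies to the right of 0 in all 3.

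The rest of the pathway was read from lists of related genes. In CT26 and LL2 none of the genes of the 8 pathway lists was called with OK-432. In CT26NYESO1 their median differences ran from -0.1439 for the polyamine list to 0.1162 for the companions of Nos2, beside -0.0216 over all genes. The counts that follow stand beside 0.41% of all genes called higher and 0.256% called lower in CT26NYESO1. In the average of the 3 effects these shares were 0.167% and 0.00595%. In CT26NYESO1, 0 of 8 tested genes of arginine transport and the urea cycle rose and 1 fell, Slc25a13, the mitochondrial aspartate and glutamate carrier (-0.28 ± 0.05, adjusted p = 0.0218). Of 13 polyamine genes 1 rose and 1 fell. Smox, spermine oxidase, went from 36.8 to 64.8 TPM (0.77 ± 0.16, adjusted p = 0.0463), and Dohh, a hydroxylase that acts on eIF5A, fell (-0.31 ± 0.07, adjusted p = 0.0465). Both calls were fragile: Smox passed in 2 and Dohh in 4 of 18 refits with 1 library left out. None of 8 genes of the nitric oxide list, 7 of tetrahydrobiopterin, 8 of proline and glutamate, 7 of other arginine users and 11 inducers and companions of Arg1 was called. Of 12 inducers and companions of Nos2, 1 rose, the cytokine gene Il1b, from 17.7 to 158 TPM (2.90 ± 0.43, adjusted p = 0.0148), and Il1b was also the 1 called in the average (1.57, adjusted p = 0.0191). The Il1b call in CT26NYESO1 was lost without control replicate 1 or 2 or OK432 replicate 3 (adjusted p up to 0.110) and that of Slc25a13 without control replicate 2 or 3 or OK432 replicate 3 (up to 0.151), and the average of Il1b held in 11 of 18 refits.

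Between controls these lists differed in both directions. Their counts stand beside 21.1% of all genes higher and 43.9% lower in CT26NYESO1 minus CT26 and 29.1% and 39.7% in LL2 minus CT26, so with 64.9% and 68.8% of genes called, a count of called genes marks nothing particular about a list. In CT26NYESO1 minus CT26, 5 of 8 transport and urea cycle genes were higher and 3 lower, as against 3 and 5 in LL2 minus CT26 (3 and 4 after quantile normalization). Slc7a7, the light chain of a carrier that exports cationic amino acids, was lower in both (-0.62 and -1.45, adjusted p = 3.74e-06 and 6.98e-11), and Slc7a6, a related carrier, likewise (-1.06 and -0.81, adjusted p = 1.31e-09 and 3.37e-08). The urea cycle genes Cps1, Otc and Nags were near 0 in all groups, and Otc was listed at 0 in each library. The neuronal synthase gene Nos1 stood at 6.10 TPM in CT26 controls against 0.106 in CT26NYESO1 and 0.263 in LL2 (-2.68 and -2.48, adjusted p = 7.84e-12 and 1.37e-11), and the endothelial Nos3 at 10.01 against 2.65 and 3.45 TPM (-1.60 and -1.31). Ddah1, which breaks down an inhibitor of these enzymes, was higher in both (1.59 and 1.15, adjusted p = 3.63e-08 and 1.54e-06).

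In the nitric oxide list, 1 gene was higher and 6 lower in each of CT26NYESO1 and LL2 against CT26. In LL2 these counts became 1 and 5 after median-of-ratios rescaling and 1 and 4 after quantile normalization. Of the tetrahydrobiopterin genes, 3 were higher and 1 lower in CT26NYESO1 (5 and 0 after either scaling), and 4 and 1 in LL2 (5 and 0 after quantile normalization). Qdpr, which recycles the cofactor, stood at 26.8 TPM in CT26, 86.7 TPM in CT26NYESO1 and 72.1 TPM in LL2 (1.66 and 1.39 above CT26). Of 13 polyamine genes, none was higher and 10 lower in CT26NYESO1 (0 and 5 once rescaled by the median of ratios, 1 and 7 once quantile normalized), and 3 higher and 4 lower in LL2 (4 and 3, then 4 and 2, after those scalings). Srm, spermidine synthase, was 165 TPM in LL2 against 297 TPM in CT26 (-0.83, adjusted p = 7.51e-08), the opposite direction to Odc1. Prodh, the proline dehydrogenase, was 24.0 TPM in LL2 and 2.88 TPM in CT26 (2.69, adjusted p = 1.21e-11), in a list with 4 higher and 3 lower in CT26NYESO1 (5 and 2 after either scaling) and 3 and 3 in LL2 (4 and 2, then 4 and 1). Of other arginine users, 2 were higher and 3 lower in CT26NYESO1 (3 and 3 after either scaling), and 4 and 2 in LL2 (4 and 1 after quantile normalization). Gatm, the first enzyme of creatine synthesis, was 83.9 TPM in LL2 against 292 TPM in CT26 (-1.78, adjusted p = 1.45e-06).

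Genes that commonly accompany Nos2 or Arg1 gave mixed directions between controls. Of 12 in the Nos2 list, 4 were higher and 2 lower in CT26NYESO1 (6 and 2, then 6 and 1, after median-of-ratios and quantile scaling) and 2 higher and 7 lower in LL2 (2 and 6, then 2 and 5). Of 11 in the Arg1 list, 3 were higher and 2 lower in CT26NYESO1 (3 and 0, then 3 and 1, after those scalings) and 3 and 4 in LL2 (4 and 3, then 4 and 2). Chil3, a secreted protein of alternatively activated macrophages, was 16.2 TPM in LL2 against 1.70 TPM in CT26 (2.59, adjusted p = 9.46e-06). Mrc1, the mannose receptor of such macrophages, was lower there (-1.35, adjusted p = 0.000157).

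Summed neutrophil markers, like Arg2, were higher in every OK432 library than in every control library of its tumour type. For Nos2 this held in CT26 and LL2. The 16 listed markers, of which 10 were tested, summed to 45.9 to 56.2 TPM in CT26 controls and 128 to 226 TPM with OK-432, to 48.0 to 68.8 and 144 to 845 TPM in CT26NYESO1, and to 57.1 to 70.6 and 189 to 325 TPM in LL2. S100a9 and then S100a8 had the highest means of the list in each OK432 group (84.2 and 37.5 TPM in CT26, 94.2 and 47.6 TPM in LL2). The means of Camp, Ltf, Ngp and Mpo were no higher than 0.331 TPM in any group, and that of Ltf in CT26 was lower with OK-432 (0.0734 against 0.265 TPM). The sums thus do not show all listed markers moving together. In CT26NYESO1, 5 of the 10 tested markers were called higher, against 0.41% of all genes, and none was called in CT26 or LL2. The calprotectin gene S100a8 rose from a mean of 2.25 to 109 TPM in CT26NYESO1 (adjusted p = 0.00954), and its partner S100a9 from 1.82 to 272 TPM (adjusted p = 0.00434). The receptor gene Csf3r rose from 10.2 to 25.1 TPM (adjusted p = 0.0463). The summed level was 845 TPM in CT26NYESO1 OK432 replicate 1, 144 TPM in replicate 2 and 618 TPM in replicate 3. Every member but Ass1 had that order in those libraries, so it was not particular to Arg2 and Nos2. In CT26 OK432 libraries the sums were 226, 128 and 209 TPM, an order that Arg2 shared. Nos2, at 15.6, 13.7 and 8.13 TPM there, did not. Of the 16 listed markers, Elane stood at 0 in all 18 libraries, and Ly6g was no higher than 0.548 TPM. The part of neutrophil number in the Arg2 and Nos2 values was not tested.

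**Figure D4:**
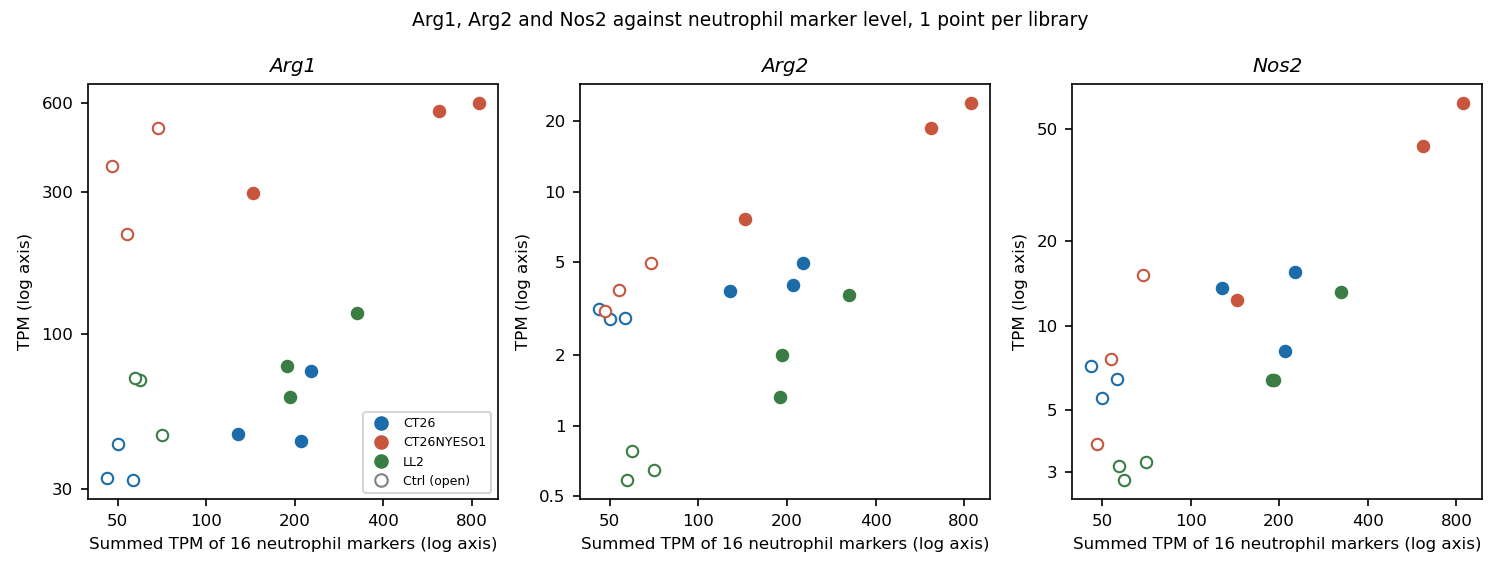
TPM of Arg1, Arg2 and Nos2 (vertical log axes) against the summed TPM of 16 neutrophil markers (horizontal log axis), 1 point per library, coloured by tumour type with controls open. All OK432 libraries lie at 128 TPM or more of marker level and all controls at 70.6 TPM or less, and Arg1 in CT26NYESO1 controls is already at 217 to 493 TPM.

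Markers of other cell types also differed between the control tumours. The 10 macrophage markers summed to 3600 to 4074 TPM in CT26 controls, 3210 to 4058 TPM in CT26NYESO1 controls and 1900 to 2262 TPM in LL2 controls, and the first 2 of these ranges overlap. With OK-432 the sums were 3676 to 4412, 2262 to 3877 and 1827 to 2173 TPM, and none of the 10 was called. The 6 monocyte markers summed to 1170 to 1275 TPM in CT26 controls, 333 to 483 TPM in CT26NYESO1 and 285 to 345 TPM in LL2, and none was called with OK-432. T cell markers summed to 17.6 to 27.3, 28.8 to 66.8 and 6.19 to 18.1 TPM in the 3 control groups. Mast cell markers summed to 69.4 to 195 TPM in CT26 controls, 195 to 383 TPM in CT26NYESO1 and 29.1 to 42.6 TPM in LL2. Fibroblast markers summed to 3110 to 4480, 1102 to 1228 and 913 to 1143 TPM, and endothelial markers to 296 to 349, 51.8 to 72.0 and 69.97 to 105 TPM. Most of the fibroblast sum in CT26 was Col1a2 (means of 2373, 710 and 26.7 TPM) and Col1a1 (779, 159 and 31.3 TPM). Against CT26 controls, LL2 controls were also lower in Pdgfra and Pdpn. They were higher in Dcn (547 against 317 TPM), Lum (336 against 31.8 TPM) and Fap. Of the endothelial genes, only Vwf was higher in LL2 than in CT26 controls. The part of cell content in the differences of Arg1 and the other members between control tumours was not tested. No gene of the other cell type lists (dendritic, NK, B, mast, endothelial, fibroblast, muscle, keratinocyte, adipocyte, erythroid and epithelial) was called with OK-432.

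The genes most like Arg1, Arg2 and Nos2 were ranked by Pearson r over the 18 libraries after the mean of each tumour type was taken away, among 11557 genes. These are descriptions, since the libraries share the treatment and the shifts in cell content. Arg2 ran closest to the chemokine gene Cxcl3 (0.97), the lipopolysaccharide co-receptor gene Cd14 (0.97), Il1b (0.96), Nos2 (0.95) and the lectin gene Clec4d (0.95), itself one of the neutrophil markers listed. Nos2 ran closest to Clec4d (0.97), Hdc (0.96), Clec4e (0.95), Arg2 (0.95) and Il1rn (0.95). Arg1 ran closest to L3hypdh (0.89), Clec4d (0.81), Rbpms2 (0.80), Pdpn (0.80) and Emb (0.80). Between members, r was 0.68 for Arg1 and Arg2, 0.72 for Arg1 and Nos2, 0.73 for Nos2 and Ass1 and 0.03 for Nos2 and Gch1.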

How the data were processed

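The authors deposited 1 table of TPM values for 18 libraries and 55291 genes. Per the submitters' processing notes, reads were handled with Trim Galore 0.6.5, STAR 2.7.3a and StringTie 2.1.2 on mm10, and per the labels' protocols the input was TRIzol RNA and the kit was for stranded mRNA. Annotation, strand setting, filters and the handling of reads shared with near-identical copies: not given in the sources used here. Because TPM is relative, a gain in abundant genes lowers every other value. Each library sums to 1000000.

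Values were taken as log2(TPM + 1). Genes with at least 1 TPM in at least 3 libraries entered the test, 16816 in all. The tool was limma (version 3.58.1, R version 4.3.3) with trended and robust shrinkage, in 1 fit of 6 group means with 12 residual degrees of freedom and 10 comparisons. Benjamini-Hochberg adjustment ran over all genes, and every adjusted p is from limma. Groups came from the sample labels. The procedure was tested on simulated data with independent normal noise, where changes were placed only in genes with a control level of about 5 TPM or more. Control levels of Arg2 lay below that, so the procedure was not tested at the level of its call. Alternatives were pseudocount 0.1, no filter, a filter of 5 TPM, median-of-ratios and quantile scaling, fits of the compared groups alone, a replicate block and leaving out each library. Positions are from GENCODE release 21 of mouse (M21).

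Named genes were the 8 members, up to 3 called genes of each direction per pathway list with a mean of at least 5 TPM, or the first tested gene where none was called, of which examples are printed, the first markers of the neutrophil list, and the 5 genes most like Arg1, Arg2 and Nos2. The rule also covered the first markers of the other cell type lists, which are given mainly as sums. Elane, Ly6g, Camp, Ltf, Ngp, Mpo, the urea cycle genes at or near 0 and the single monocyte, fibroblast and endothelial genes were named after their values were seen. The members, gene lists and tests were chosen with earlier results of these data known.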

Additional observations from a re-analysis of the deposited data

How the results depend on the processing

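Of 552 values recomputed under the other settings, 529 kept direction and side of the threshold, 15 newly passed, 5 no longer passed and 3 reversed. Of 1440 refits of members with 1 library left out, 1378 kept both, 13 newly passed, 15 no longer passed and 34 reversed. The count of members called with OK-432 in CT26NYESO1, 1, was 0 with no filter and 0 in a fit of only the groups compared, and in the average, 1, was 0 with no filter. In LL2 less CT26 controls the count of 2 was 4 after median-of-ratios rescaling, 4 after quantile normalization and 5 in a fit of only the groups compared. With a replicate block the counts were 2 in CT26NYESO1 and 2 in the average (Nos2 added, adjusted p = 0.0379 and 0.0107) and 6 in LL2 less CT26, while Ass1 in LL2 less CT26NYESO1 lost its call (adjusted p = 0.176). Same-numbered OK432 and Ctrl libraries of a tumour type deviated together at r from -0.12 to 0.22, and differently numbered ones at r from -0.19 to 0.26. With 3 libraries a group, these values cannot settle whether the numbers pair the libraries. With 1 library left out, the member counts were 0 in CT26 and in LL2, 0 to 2 in CT26NYESO1, 0 to 2 in the average, 0 to 1 in the CT26NYESO1 less CT26 effect, 0 in the other differences of effects, and 4 to 5, 2 to 3 and 5 to 7 in the CT26NYESO1 less CT26, LL2 less CT26 and LL2 less CT26NYESO1 controls. All genes called in CT26NYESO1 numbered 69 higher and 43 lower, 26 and 16 with no filter, 0 and 0 in its own fit, 38 and 5 with the block, 82 and 29 once rescaled by the median of ratios, and 66 and 17 once quantile normalized. The Ass1 difference between CT26NYESO1 and CT26 controls, -0.18, was 0.027 once rescaled by the median of ratios and 0.080 once quantile normalized, and that of Oat between LL2 and CT26 controls, -0.14, was 0.036 after quantile normalization. None of these was called. Uncalled values that crossed 0 without 1 library were as follows. Arg1 ran from -0.44 to 0.20 (the CT26NYESO1 less the CT26 effect), from -0.39 to 0.11 (the LL2 less the CT26 effect), from -0.33 to 0.31 (the LL2 less the CT26NYESO1 effect). Nos2 ran from -0.20 to 0.68 (CT26NYESO1 less CT26 in controls). Slc7a2 ran from -0.10 to 0.39 (OK-432 in CT26), from -0.44 to 0.29 (OK-432 in CT26NYESO1), from -0.021 to 0.35 (OK-432 in LL2), from -0.046 to 0.20 (the average effect), from -0.56 to 0.17 (the CT26NYESO1 less the CT26 effect), from -0.21 to 0.28 (the LL2 less the CT26 effect), from -0.10 to 0.63 (the LL2 less the CT26NYESO1 effect). Ass1 ran from -0.42 to 0.11 (the LL2 less the CT26NYESO1 effect), from -0.38 to 0.15 (CT26NYESO1 less CT26 in controls). Odc1 ran from -0.10 to 0.017 (the CT26NYESO1 less the CT26 effect). Oat ran from -0.080 to 0.022 (OK-432 in LL2). Gch1 ran from -0.0073 to 0.17 (OK-432 in LL2), from -0.043 to 0.13 (LL2 less CT26 in controls). The cause of these changes was not tested. No fit of only the groups compared was run for the average, which uses all 18 libraries. Depth is unknown, so no precision from read counts can be given.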
